A study of Mus musculus with 8 samples.

Results

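The genes of presynaptic vesicle release examined here number 34, out of 31417 genes in the count table, and were taken from a list of gene symbols: the SNARE proteins Snap25, Stx1a, Vamp1 and Vamp2, 6 synaptotagmins with the related calcium sensor Doc2b, 2 complexins, 6 priming factors and RIM proteins, 4 scaffolds of the active zone, Rab3a with its effector Rph3a, 3 synapsins and 6 other proteins of the vesicle membrane. All 34 were in the table and all 34 passed the filter on low counts, which kept 16511 genes. The rule that lists them uses no measured value, although the set was chosen with earlier results of these data known. The study compared the striatum of mice that lack Dclk3, a kinase of the doublecortin-like family, with the striatum of wild type mice that served as the control for the knockout. Both groups were 12 months old and held 4 libraries each, and every library came from 1 striatum. The labels name no other allele, agent or treatment in either group, and they do not state the strain, the sex, the deleted part of Dclk3 or the cells in which it was deleted. Nor do they say that each library came from a different mouse, so a p-value measures the spread between these libraries.

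Neurotransmitter is released when a synaptic vesicle fuses with the plasma membrane. Fusion is driven by SNARE proteins that zip together across both membranes, it is triggered when a synaptotagmin binds calcium, and complexins clamp and assist the final step. RIM and Munc13 proteins make docked vesicles ready for fusion at the active zone, large scaffolds such as Bassoon and Piccolo hold that zone together, and synapsins tether the reserve of vesicles behind it. The RNA of a striatal library comes mainly from cell bodies in the dissected tissue, whereas many release sites in the striatum belong to axons that arrive from cortex, thalamus and midbrain, so these transcripts report on the cells of the tissue block and not on those incoming terminals. In bulk tissue, fewer cells of a type and less RNA per cell cannot be told apart.

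The DNA just upstream of these genes was examined because many of them are expressed mainly in neurons, and the stretches shown are those of the synapsin gene Syn1 and of the members with the clearest patterns below, Vamp1, Unc13b and Unc13c. RefSeq promoters on GRCm38, the assembly named mm10, were matched for 26 of the 34 members in 37 windows that run from 250 bases before a gene's start to 50 after it. Capitals mark motifs on either strand: TTCAGCACC, the left part of the RE1 element bound by the repressor REST, TGACGTCA, the cAMP response element, CACGTG, an E-box, and GGGCGG, the GC box. TATAAA was also searched, and no motif overlapped another in the stretches shown. Syn1 is on the minus strand at chrX:20920919-20921168, Vamp1 on the plus strand at chr6:125215331-125215580, Unc13b on the plus strand at chr4:43058703-43058952 and Unc13c on the minus strand at chr9:73969038-73969287, each ending at the base before the start. Of Unc13a only 30 bases are shown, on the minus strand at chr8:71671717-71671746, which hold its RE1 match on the opposite strand just after the start.
Syn1: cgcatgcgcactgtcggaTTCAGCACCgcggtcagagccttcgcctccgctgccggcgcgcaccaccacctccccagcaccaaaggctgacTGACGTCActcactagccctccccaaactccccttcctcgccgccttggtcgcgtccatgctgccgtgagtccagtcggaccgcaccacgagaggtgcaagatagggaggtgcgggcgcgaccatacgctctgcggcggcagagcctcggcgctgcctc
Unc13a: tccgcgcccccGGTGCTGAAgcgacatggc
Vamp1: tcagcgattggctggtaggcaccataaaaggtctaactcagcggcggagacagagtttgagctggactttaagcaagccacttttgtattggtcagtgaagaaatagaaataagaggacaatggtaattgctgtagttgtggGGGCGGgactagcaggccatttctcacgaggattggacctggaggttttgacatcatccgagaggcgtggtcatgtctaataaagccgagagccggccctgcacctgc
Unc13b: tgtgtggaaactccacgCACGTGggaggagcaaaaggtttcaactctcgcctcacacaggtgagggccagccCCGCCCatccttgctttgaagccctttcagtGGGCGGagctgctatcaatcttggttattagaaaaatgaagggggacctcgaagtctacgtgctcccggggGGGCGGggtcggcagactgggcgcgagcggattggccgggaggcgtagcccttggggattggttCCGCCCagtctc
Unc13c: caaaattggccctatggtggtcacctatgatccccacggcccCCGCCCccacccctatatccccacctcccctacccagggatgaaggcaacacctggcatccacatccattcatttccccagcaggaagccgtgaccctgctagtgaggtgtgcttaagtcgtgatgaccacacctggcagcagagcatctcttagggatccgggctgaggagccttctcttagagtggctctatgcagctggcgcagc

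The RE1 part lay in 2 of the 37 member windows, those of Syn1 and Unc13a, and in 0.371% of all 32851 promoter windows. The cAMP response element lay in 1, that of Syn1, against 1.79% of all windows. A GC box was far more common and lay in 26 member windows (70.3%), which belong to 23 of the 26 matched members, against 35.7% of all windows. The member windows were also richer in G and C, with a median of 62.3% against 52.7%. CACGTG lay in 4 member windows, of Sv2b, Syt6 and Unc13b (7.15% of all windows), and TATAAA in 2, both of Sv2b (13.6% of all windows). These are matches of letters and do not show that a factor binds.

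Dclk3 was measured first as a check on the genotypes. Its level was 95.2, 117, 80.9 and 86.1 CPM (counts scaled to the size of the library) in the wild type libraries and 27.7, 19.6, 20.9 and 22.7 CPM in the knockout libraries. The groups did not overlap, and the remaining level was 24.0% of that in wild type (log2 fold change -2.06, SE 0.14, edgeR adjusted p = 0.000773). Reads from parts of the gene that were not deleted can contribute to that remainder. Totals ran from 24441242 to 37145559 counts per library, and the markers of striatal medium spiny neurons, the main cell type of this tissue, were abundant in all 8 libraries (summed level 4781 to 5668 CPM in wild type and 4747 to 5411 in knockout; Ppp1r1b, which encodes DARPP-32, at 898 to 1136 CPM). Some libraries stood apart. Markers of thalamic and other subcortical glutamatergic neurons summed to 614 CPM in knockout library 4 and 386 in knockout library 1, against 210 to 346 in the other 6. Knockout library 4 was also lowest for the cortical glutamatergic markers (826 CPM against 1012 to 1600). Wild type library 4 held choroid plexus markers at 2916 CPM against 39.8 to 242 elsewhere. Wild type library 2 had the astrocyte gene Gfap at 385 CPM against 137 to 221, but the other astrocyte markers were mixed there. Gja1 (172 CPM), Aldoc (860), Aldh1l1 (70.5) and Gjb6 (35.4) were at their lowest in that library. Slc1a3, Slc1a2, S100b and Slc4a4 were not, and Aqp4 (150 CPM) was at its highest within wild type.

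No member of the release machinery passed the test between the genotypes. With edgeR's quasi-likelihood test and Benjamini-Hochberg adjustment over all 16511 genes, 0 of the 34 passed an adjusted p of 0.05, and every member's adjusted p was 0.999. Only 1 gene in the whole comparison passed (0.00606% of those tested), and it was Dclk3. At an unadjusted p under 0.05 there was 1 member, Vamp1, which was higher in knockout, while 3.76% of all tested genes reached that level (1.96% higher and 1.79% lower). In 0 members did the 4 knockout libraries lie wholly above or below the 4 wild type libraries, a separation seen in 1.93% of all genes. The alternative tools gave 0 members past the adjusted threshold as well. DESeq2's Wald test and limma-voom each had 2 at an unadjusted p under 0.05, where 2.21% and 4.26% of all their tested genes reached that level.

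The data were precise enough to bound most of these differences. Counts per member and library ran from 261 to 111088. Log2 fold changes of knockout over wild type lay between -0.28 and 0.28 with a median of -0.025, beside a median of -0.0011 over all tested genes. The 95% interval lay within a 1.5-fold change in either direction for 32 of the 34 members (94.1%), against 77.8% of all tested genes. The exceptions were Unc13c, whose interval reached a 1.53-fold increase, and Sv2b, whose interval reached down to 0.65 of the wild type level. These shares are not at like levels: all 34 members had a mean of at least 10 CPM, but only 10113 of the 16511 tested genes did. More members were below 0 than above it, 23 against 11 (67.6% below, with 50.5% of all tested genes below). Over the 17 alternative settings, 16 to 25 members were below 0. The only setting with more members above 0 than below was the one without knockout libraries 1 and 4, the libraries with the most thalamic marker RNA. There 16 members were below 0 and 18 above, and the median was 0.003. The 10 astrocyte markers summed to 6664 to 7266 CPM in wild type and 7408 to 7870 CPM in knockout, without overlap. Most of that sum is Slc1a2, which overlapped (3782 to 4433 and 4054 to 4635 CPM), and 2 of the 10 separated the groups (1.93% of all genes). In the same test 5 of them, all higher in knockout, had an unadjusted p under 0.05 (1.96% of all genes), none with an adjusted p under 0.05. Other non-neuronal lists were mostly above 0 too: 9 of 10 oligodendrocyte, 10 of 10 microglia, 8 of 10 endothelial and 5 of 5 blood cell markers. Of these, 2, 0, 1 and 3 had an edgeR unadjusted p under 0.05, all higher in knockout (1.96% of all genes). Among neuronal lists, 9 of 10 cortical markers were below 0. Above 0 were 10 of 10 thalamic, 7 of 10 medium spiny neuron, 6 of 9 striatal interneuron and 4 of 5 pallidal markers. All 7 choroid plexus markers were below 0. The part of any of these markers in the split was not tested.

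**Figure D1:**
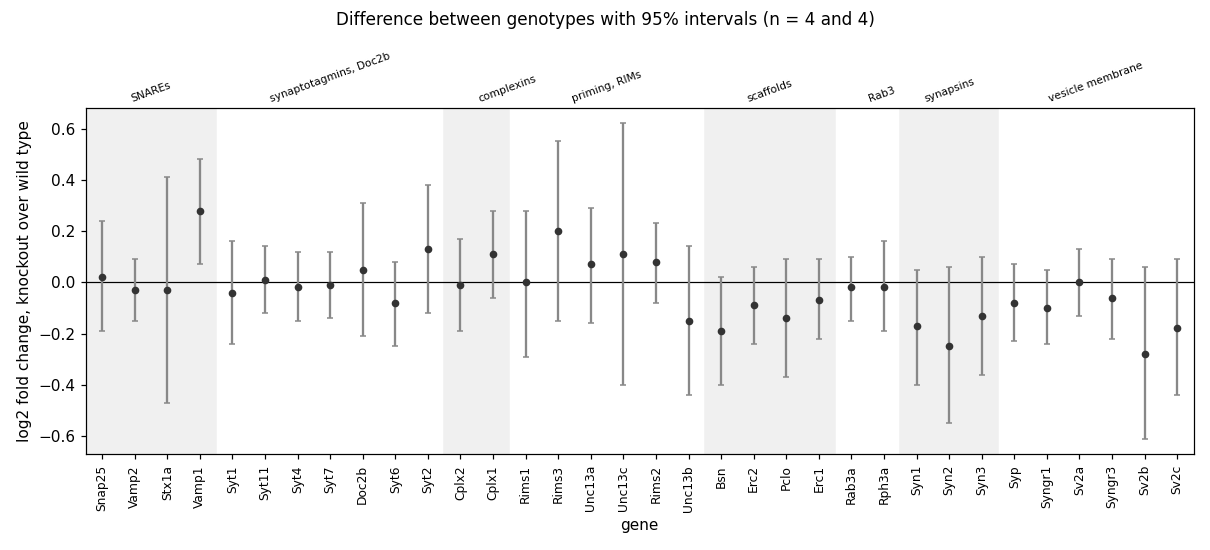
Log2 fold change of Dclk3 knockout over wild type (vertical axis) for each of the 34 genes (horizontal axis, grouped by role), with points for the estimate and bars for the 95% interval, n = 4 and 4. All intervals except that of Vamp1 cross 0, and the points lie between -0.28 and 0.28.

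Levels between genes were compared as CPM per kb of merged exons, which allows for transcript length but understates genes with many annotated variants. The mean over the 8 libraries was highest for Snap25 (389), Cplx2 (362), Cplx1 (317), Vamp2 (291) and the vesicle protein synaptophysin, Syp (238). In all, 11 members were above 100 CPM per kb, and 4 were below 10: Rims2 (8.51), Erc1 (3.20), Unc13b (1.99) and Syn3 (0.989). Within families the order was mostly wide. In wild type, Vamp2 stood at 294 ± 4.98 CPM per kb (SD, n = 4) and its paralog Vamp1 at 15.6 ± 1.47, Syt1 at 185 ± 23.2 and Syt2 at 13.3 ± 2.45, and Syn1 at 122 ± 19.4 with Syn2 at 76.7 ± 16.6 and Syn3 at 1.03 ± 0.151. Some neighbours did not differ beyond their spread: Syt1 and Syt11 (182 ± 9.22) were level, as were Rims1 (33.4 ± 4.87) and Rims3 (30.0 ± 7.63), and Unc13c (22.9 ± 4.75) lay above or below Unc13a (27.3 ± 1.82) depending on the library.

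**Figure D2:**
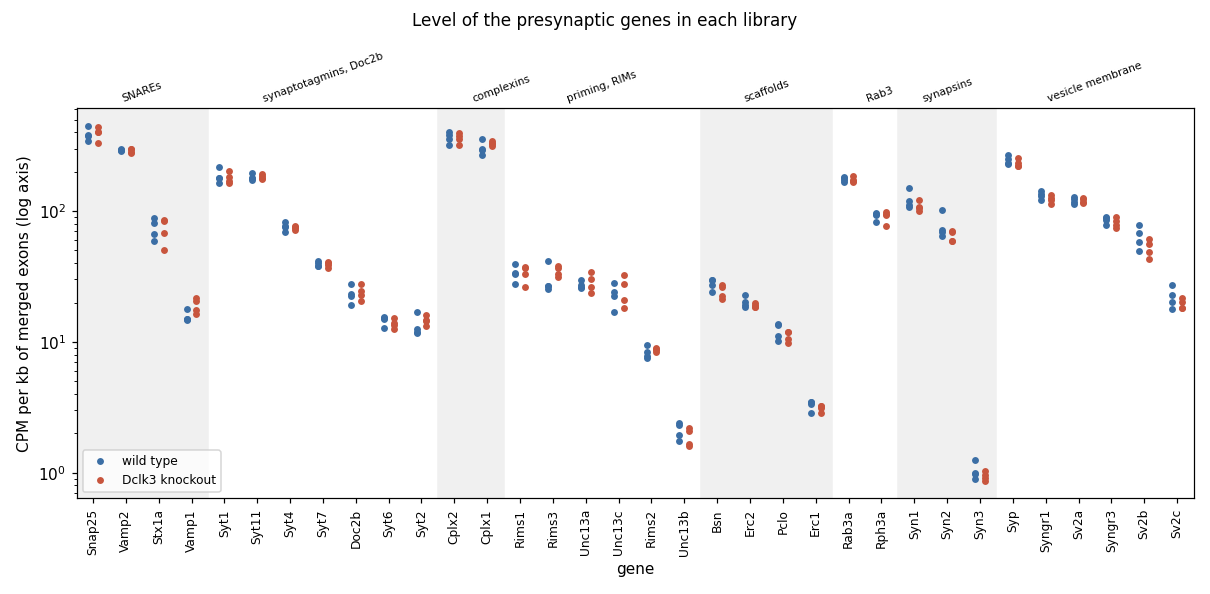
CPM per kb of merged exons (vertical log axis) for the 34 genes (horizontal axis, grouped by role), with 1 point per library, wild type in blue and Dclk3 knockout in red. Levels run from Snap25 at a mean of 389 to Syn3 at 0.989, and the points of the genotypes overlap for every gene.

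Among the SNARE proteins, 2 of 4 were above 0 and 2 below. Vamp1, the vesicle SNARE prominent in fast-firing neurons, was at 149, 153, 153 and 181 CPM in wild type and 219, 165, 179 and 208 CPM in knockout. Knockout libraries 1 and 4 were the highest, and knockout library 3 lay just under wild type library 4, so the groups overlapped. The fitted difference on the log2 scale was 0.28 (SE 0.09, edgeR unadjusted p = 0.0125, adjusted p = 0.999), with a 95% interval from 0.07 to 0.48. Without knockout libraries 1 and 4 it was 0.11 (edgeR unadjusted p = 0.243), which is the only one of 17 alternative settings in which the unadjusted p was above 0.05. In the same 2 libraries Pvalb, the calcium buffer of fast-spiking interneurons and of many pallidal neurons, was at 84.7 and 77.8 CPM, against 44.6 to 56.1 CPM in the other 6 libraries. The whole list of striatal interneuron markers, which includes Pvalb, summed to 400 and 447 CPM there, within the 314 to 457 CPM of the other libraries. The list of pallidal markers, which also includes Pvalb, summed to 128 and 126 CPM there, against 81.8 to 95.3 CPM in the others. Its genes Kcng4 and Lhx6 were also highest in these 2 libraries, while Npas1 and Nkx2-1 were not highest in both. The part of Pvalb cells or of pallidal neurons in the Vamp1 level was not tested.

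Snap25, the plasma membrane SNARE and the member with the highest level per length, was at 2316, 2549, 2579 and 3045 CPM in wild type and 2741, 2729, 2956 and 2241 CPM in knockout. The highest was wild type library 4 and the lowest knockout library 4, while the other knockout libraries lay above the other wild type libraries. The log2 fold change was 0.02 (SE 0.10, edgeR unadjusted p = 0.806). Without both libraries numbered 4, its highest and lowest, the edgeR unadjusted p was under 0.05, a level that 8.22% of all tested genes reached there. Vamp2, the main vesicle SNARE of forebrain neurons, varied least of all members, from 1052 to 1144 CPM, a coefficient of variation of 2.79% over the 8 libraries (log2 fold change -0.03, 95% interval -0.15 to 0.09). Stx1a, the syntaxin of the release complex, varied widely within each genotype, from 157 to 237 CPM in wild type and from 135 to 229 CPM in knockout (log2 fold change -0.03, 95% interval -0.47 to 0.41).

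Of the calcium sensors and other synaptotagmins, 3 of 7 were above 0 and 4 below, between -0.08 and 0.13. Syt11, a synaptotagmin with little calcium binding and level with Syt1 as the highest of this group per length, was at 939, 928, 905 and 1016 CPM in wild type and 915, 1006, 937 and 965 CPM in knockout, fully interleaved (log2 fold change 0.01, SE 0.06, edgeR unadjusted p = 0.828). Syt1, the main sensor of fast release in the forebrain, ranged from 1360 to 1816 CPM in wild type and from 1376 to 1691 CPM in knockout (log2 fold change -0.04, 95% interval -0.24 to 0.16). Syt7, a sensor of slow release and facilitation, was among the steadiest members, at 285 to 310 CPM in wild type and 276 to 307 CPM in knockout (log2 fold change -0.01). Syt2, the fast sensor of many inhibitory and brainstem synapses, was at 89.3 to 129 CPM in wild type and 101 to 122 CPM in knockout (0.13, 95% interval -0.12 to 0.38). Syt4 (log2 fold change -0.02), Syt6 (-0.08) and Doc2b (0.05), a high-affinity sensor linked to spontaneous release, overlapped between the groups as well.

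The complexins, small proteins that bind the assembled SNARE complex, were both abundant. Cplx1 was at 644, 592, 652 and 780 CPM in wild type and 755, 690, 720 and 716 CPM in knockout (log2 fold change 0.11, SE 0.08, edgeR unadjusted p = 0.191). The 4 knockout libraries all lay above 3 of the wild type libraries and below the fourth. Without wild type library 4 the value was 0.19 (edgeR unadjusted p = 0.00969, adjusted p = 0.556), and without wild type library 2 it was 0.06. Cplx2 was at 1862, 1583, 1739 and 1973 CPM in wild type and 1758, 1834, 1933 and 1580 CPM in knockout, with no order between the groups (log2 fold change -0.01, SE 0.08, edgeR unadjusted p = 0.901).

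Among priming factors and RIM proteins, 4 of 6 were above 0 and 2 below. Rims3, a short RIM protein, was at 213, 201, 213 and 330 CPM in wild type and 292, 261, 301 and 248 CPM in knockout. All 4 knockout libraries were above 3 of the wild type libraries, but wild type library 4 was the highest of all (log2 fold change 0.20, SE 0.15, edgeR unadjusted p = 0.222). Leaving out that library gave 0.40, with an adjusted p of 0.307 in the same test, and leaving out both libraries numbered 4 gave 0.45 and an adjusted p of 0.0683, the lowest of any member under any of the 17 settings. Rims1, the main long RIM protein, was at 241, 203, 248 and 291 CPM in wild type and 244, 268, 273 and 194 CPM in knockout, with its means level (33.4 ± 4.87 and 33.3 ± 4.90 CPM per kb, SD, n = 4; edgeR unadjusted p = 0.972), and Rims2 was at 77.9 to 98.1 CPM in wild type and 87.2 to 94.1 CPM in knockout (log2 fold change 0.08). For Rims1 the edgeR unadjusted p was under 0.05 without both libraries numbered 4, its highest and lowest, where 8.22% of all tested genes reached that level. Unc13a, the main Munc13 of the forebrain, was at 325 to 377 CPM in wild type and 301 to 433 CPM in knockout (log2 fold change 0.07), and without knockout libraries 1 and 4 it was 0.24.

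Unc13c, the Munc13 known best from cerebellar granule cells, varied more than any other member, with a coefficient of variation of 22.4%. It was at 249, 198, 212 and 148 CPM in wild type and 241, 158, 185 and 285 CPM in knockout, so that each genotype held both high and low libraries (log2 fold change 0.11, 95% interval -0.40 to 0.62). Without knockout libraries 1 and 4 the sign turned, to -0.23. Unc13b, a Munc13 of lower level here, was at 40.0, 54.4, 43.9 and 52.6 CPM in wild type and 37.6, 50.1, 47.7 and 36.3 CPM in knockout (log2 fold change -0.15, 95% interval -0.44 to 0.14).

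All 4 scaffolds of the active zone were below 0, without any passing the test. Bsn, which encodes Bassoon, was at 433, 473, 380 and 476 CPM in wild type and 340, 434, 416 and 356 CPM in knockout (log2 fold change -0.19, SE 0.09, edgeR unadjusted p = 0.0669). Its edgeR unadjusted p was under 0.05 with no filter on low counts, without wild type library 3 and without knockout library 2. The lowest 2 libraries were knockout libraries 1 and 4, and without them the value was -0.05. Pclo, which encodes Piccolo, was at 250, 310, 229 and 301 CPM in wild type and 219, 266, 270 and 236 CPM in knockout (log2 fold change -0.14, SE 0.10, edgeR unadjusted p = 0.208), and without the same 2 libraries it was -0.02. Erc2, also called CAST, was at 187, 221, 181 and 196 CPM in wild type and 187, 192, 179 and 179 CPM in knockout (log2 fold change -0.09, SE 0.07, edgeR unadjusted p = 0.209). Wild type library 2 was its highest, and without that library the value was -0.03. Its paralog Erc1, also called ELKS, was at 46.5 to 56.3 CPM in wild type and 46.8 to 53.0 CPM in knockout (log2 fold change -0.07).

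Rab3a, the small GTPase of synaptic vesicles, was at 372, 387, 400 and 407 CPM in wild type and 382, 410, 375 and 375 CPM in knockout (log2 fold change -0.02, SE 0.06, edgeR unadjusted p = 0.697). Rab3a was lowest in wild type library 1 and highest in knockout library 2, and the other knockout libraries lay below the other wild type libraries. Its effector rabphilin, Rph3a, was at 385 to 451 CPM in wild type and 357 to 459 CPM in knockout (log2 fold change -0.02).

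The 3 synapsins were all below 0, and each was highest in wild type library 2. Syn1 was at 356, 497, 370 and 391 CPM in wild type and 330, 401, 352 and 346 CPM in knockout (log2 fold change -0.17, SE 0.10, edgeR unadjusted p = 0.117). Syn2 was at 485, 712, 504 and 457 CPM in wild type and 415, 498, 415 and 489 CPM in knockout (log2 fold change -0.25, SE 0.14, edgeR unadjusted p = 0.0991). Syn3, the synapsin with the least RNA in this tissue, was at 12.3, 15.4, 11.1 and 11.9 CPM in wild type and 10.7, 11.3, 11.8 and 12.6 CPM in knockout (log2 fold change -0.13, SE 0.11, edgeR unadjusted p = 0.254). Without wild type library 2 the log2 fold changes were -0.06 for Syn1, -0.09 for Syn2 and -0.02 for Syn3. That library was their highest, so smaller differences follow from leaving it out. The edgeR unadjusted p of Syn2 was under 0.05 without wild type library 4, without both libraries numbered 4 and with the replicate block. In wild type library 2 Slc17a7, the vesicular glutamate transporter of cortical neurons, was at 1159 CPM against 545 to 895 in the other 7. This library also held the high Gfap and the mixed other astrocyte genes given above. The part of these in the synapsin values was not tested. Exons of Syn3 overlap those of Timp3 on the opposite strand over 14.1% of their length, and such overlaps cover 16.8% for Syp, 14.5% for Syt4 and 11.8% for Erc1, so these values may include reads of the other gene.

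Among the other vesicle membrane proteins, 5 of 6 were below 0. Sv2b, the SV2 protein of many glutamatergic neurons, was at 415, 651, 485 and 567 CPM in wild type and 409, 509, 469 and 361 CPM in knockout (log2 fold change -0.28, SE 0.15, edgeR unadjusted p = 0.0937). Its unadjusted p was under 0.05 with DESeq2's Wald test, and in edgeR with the replicate block, without wild type library 1 and without knockout library 2. Without wild type library 2 its log2 fold change was -0.16. Sv2c, the SV2 protein of the basal ganglia, was at 222, 265, 173 and 196 CPM in wild type and 195, 176, 177 and 211 CPM in knockout (log2 fold change -0.18, SE 0.12, edgeR unadjusted p = 0.172), and -0.06 without the same library. Wild type library 2 was the highest for both, and the other libraries of the genotypes overlapped. Sv2a, the broadly expressed SV2 protein, was level, at 522 to 591 CPM in wild type and 532 to 582 CPM in knockout (log2 fold change 0.00, 95% interval -0.13 to 0.13). Syp was at 1186, 1391, 1306 and 1218 CPM in wild type and 1157, 1314, 1152 and 1213 CPM in knockout (log2 fold change -0.08, SE 0.07, edgeR unadjusted p = 0.289). Syngr1, a synaptogyrin related to Syp, was at 584, 649, 625 and 677 CPM in wild type and 546, 642, 605 and 581 CPM in knockout (log2 fold change -0.10, SE 0.07, edgeR unadjusted p = 0.189). Its paralog Syngr3 was at 161 to 185 CPM in wild type and 153 to 185 CPM in knockout (log2 fold change -0.06).

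The ratio between paralogs does not depend on library scaling, and 13 ratios of levels per length were compared by an exact two-sided permutation test over the 70 ways of dividing the libraries, which cannot give a p below 0.0286. None of the 13 separated the genotypes, and the lowest p adjusted over the 13 was 0.446. The Vamp1 to Vamp2 ratio was 0.0532 ± 0.00480 in wild type and 0.0660 ± 0.0106 in knockout (SD, n = 4 each; log2 difference 0.30, exact p = 0.0857), and without knockout libraries 1 and 4 the difference was 0.10. The Rims3 to Rims1 ratio was 0.893 ± 0.116 and 1.05 ± 0.121 (log2 difference 0.24, exact permutation p = 0.143), and the Syt2 to Syt1 ratio 0.0717 ± 0.00684 and 0.0817 ± 0.0121 (0.18, exact permutation p = 0.171). The Cplx1 to Cplx2 ratio was 0.839 ± 0.0458 and 0.918 ± 0.0902 (0.13, exact permutation p = 0.229), and the difference was 0.01 without knockout libraries 1 and 4. In each of these 4 ratios knockout libraries 1 and 4 held the highest values. Others lay on the opposite side: the Unc13b to Unc13a ratio was 0.0769 ± 0.0107 and 0.0661 ± 0.00519 (log2 difference -0.21, exact permutation p = 0.114), and the Sv2b to Sv2a ratio 0.523 ± 0.0840 and 0.433 ± 0.0665 (-0.27, exact permutation p = 0.171).

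**Figure D3:**
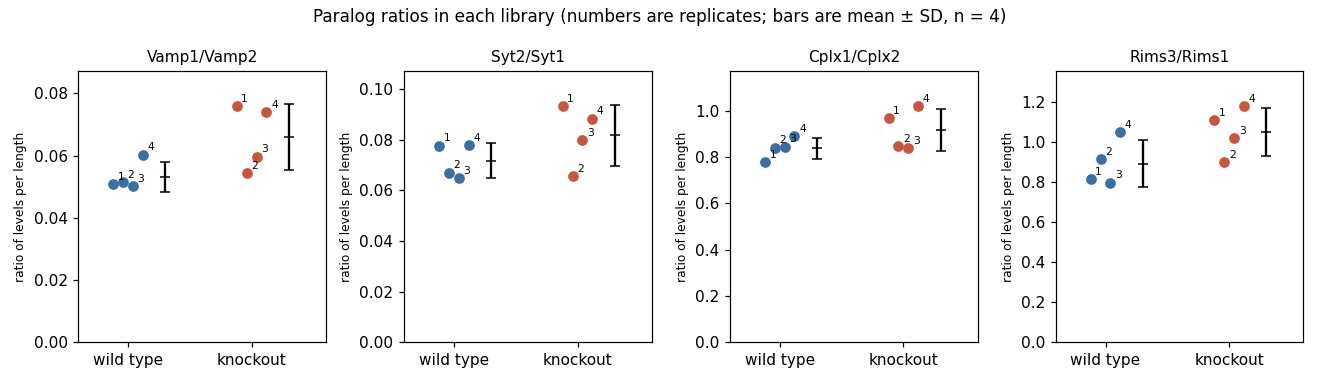
Ratio of the levels per length of paired genes (vertical axes, from 0) in each library, wild type in blue and Dclk3 knockout in red, with replicate numbers beside the points and bars for mean ± SD (n = 4). Knockout libraries 1 and 4 are the highest in all 4 panels, while knockout libraries 2 and 3 lie near or within the range of wild type.

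Libraries of the same genotype differed from each other. The median coefficient of variation over the 8 libraries was 10.5% for the members, against 7.11% for the 10113 tested genes with a mean of at least 10 CPM, a level all 34 members reached. After Unc13c the most variable members were Sv2b (19.4%), Stx1a (19.2%), Syn2 (18.8%) and Rims3 (18.3%). The highest value of a member was found in wild type library 4 for 14 genes and in wild type library 2 for 11, and the lowest was found in knockout library 4 for 11 and in knockout library 1 for 7. Library identity and genotype were not aligned throughout: 26 of the 34 members lay above their own mean in wild type library 4, and 26 also did in knockout library 2, against 10 to 17 in the other libraries.

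**Figure D4:**
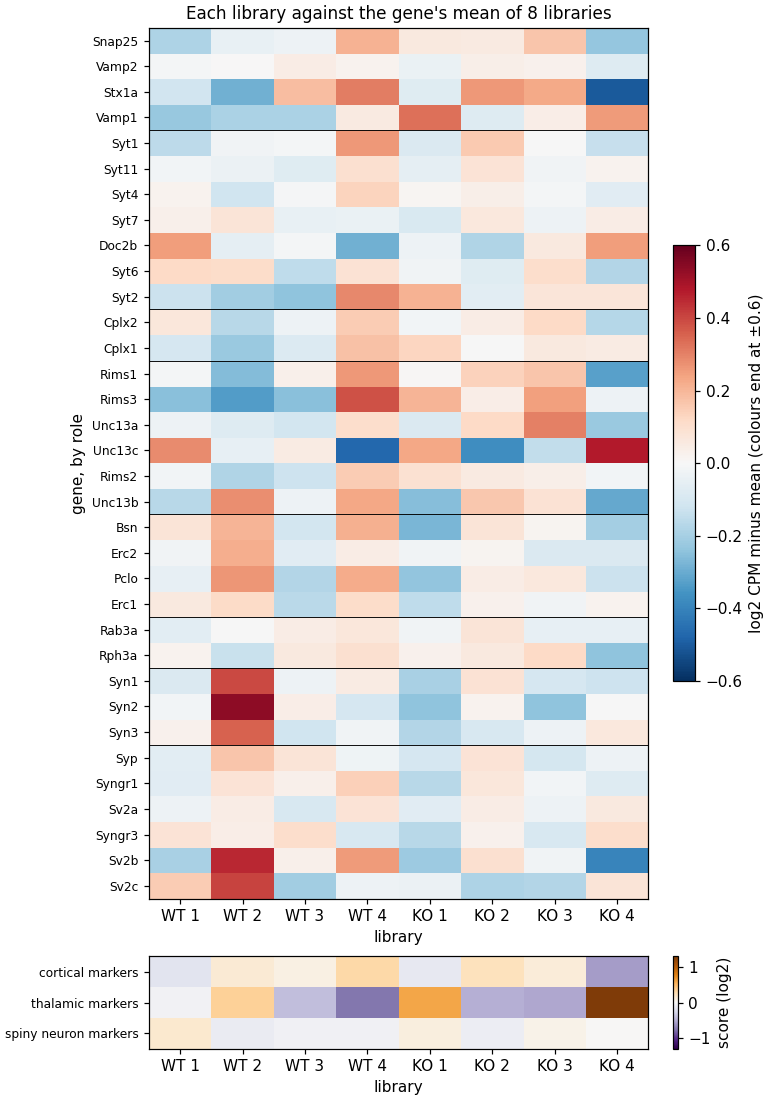
Upper panel: log2 CPM of each gene minus its mean over 8 libraries (colour), with genes in rows by role and libraries in columns. Lower panel: marker scores of the same libraries. Wild type library 2 is high for the synapsins, Sv2b and Sv2c, and Unc13c is high in knockout library 4, where the cortical marker score is lowest at -0.58.

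The members were also compared across libraries with the markers of neighbouring brain regions and of the striatum. A score was formed for each of 3 marker lists as the mean log2 deviation of its genes, and related to every tested gene over the 8 libraries by Pearson's r with an exact permutation test. After adjustment over all 49503 relations, 0 members and 0 genes of any kind passed for the cortical, the thalamic or the medium spiny neuron score, so the following are descriptions. At an unadjusted exact p under 0.05, 11 of the 34 members (32.4%) were related to the cortical score, 9 with a positive and 2 with a negative sign, where 12.2% of all tested genes reached that level. For the thalamic score there were 8 members (23.5%), 1 positive and 7 negative, against 9.56% of genes. For the medium spiny neuron score there were 4 (11.8%), 0 positive and 4 negative, against 4.82% of genes. The cortical and thalamic scores were themselves inversely related (r = -0.86 over the 8 libraries), so they are not separate evidence, and the members share libraries and scaling.

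Unc13c had the smallest p of any member, with a negative sign: it was lowest where the cortical score was highest (wild type library 4, 148 CPM) and highest where the score was lowest (knockout library 4, 285 CPM). By summed CPM, in which Slc17a7 weighs most, the cortical markers were highest in wild type library 2. Pearson's r was -0.93 (exact permutation p = 7.44e-05, adjusted p = 0.194) and Spearman's rho -0.98 (exact permutation p = 0.000397, adjusted p = 0.312). Leaving out knockout library 4 and wild type library 1, the farthest from the median score, gave r = -0.95. Unc13b went the other way, with r = 0.88 (exact permutation p = 0.000918, adjusted p = 0.261) and rho = 0.90 (exact permutation p = 0.00456, adjusted p = 0.391), and r was 0.88 without the same libraries. The corresponding r was 0.84 for Sv2b (rho 0.88; 0.69 without the same libraries) and -0.83 for Doc2b (rho -0.90; -0.67 without them), with exact permutation p of 0.00754 and 0.00546 and adjusted p of 0.378 and 0.348. Vamp2 had r = 0.89 with the cortical score (exact permutation p = 0.00528, adjusted p = 0.345) but a rho of 0.62, and r was 0.69 without the same libraries. With the thalamic score, Stx1a gave r = -0.94 (rho -0.90, exact permutation p = 0.00159, adjusted p = 0.290; -0.98 without knockout libraries 1 and 4). A relation within each genotype could not be computed usefully from 4 libraries.

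**Figure D5:**
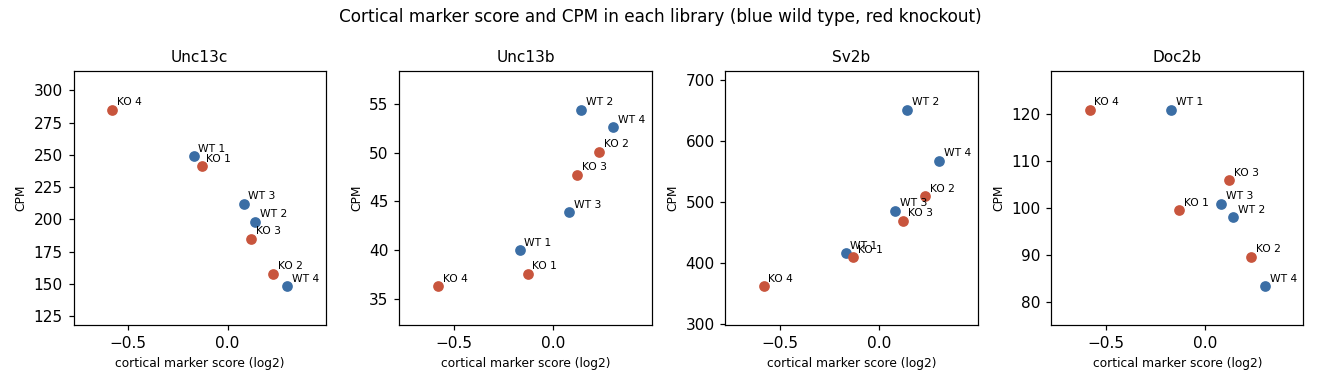
CPM of Unc13c, Unc13b, Sv2b and Doc2b (vertical axes, which do not start at 0) against the cortical marker score (mean log2 deviation of 10 genes, horizontal axes), 1 labelled point per library, wild type in blue and Dclk3 knockout in red. Unc13c and Doc2b are high at a low score and Unc13b and Sv2b at a high one; the trend within each genotype was not tested.

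The wider pathway was read from 77 further genes, of which 75 passed the filter on low counts. None of the 75 passed the adjusted threshold, 1 had an unadjusted p under 0.05 (3.76% of all tested genes did), and 52 were below 0 and 23 above (69.3% below, median -0.057, beside 50.5% of all tested genes below). In the list of other release genes, 46 of 48 were tested, 30 of them below 0, and the smallest p belonged to Syt5, a synaptotagmin (log2 fold change -0.23, SE 0.09, edgeR unadjusted p = 0.0206). Also named by the rule were Doc2a, a paralog of Doc2b whose exons overlap those of Ino80e on the opposite strand over 39.4% of their length (-0.53, edgeR unadjusted p = 0.0708), and Syt17 (-0.34, edgeR unadjusted p = 0.113). In the list of vesicle recycling and filling genes, 22 of 29 were below 0, and the smallest p belonged to Slc17a7 (-0.36, edgeR unadjusted p = 0.0729), followed by Clta, a clathrin light chain, Atp6v1b2, a subunit of the proton pump that fills vesicles, and the endocytic adaptor Epn1, at -0.14, -0.15 and -0.13. Slc17a7 was lowest in knockout libraries 4 and 1, at 545 and 629 CPM, and wild type library 1 followed at 736 CPM.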

How the data were processed

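RNA was measured in 8 striatal libraries, 4 wild type and 4 Dclk3 knockout; per the labels' protocols, libraries were poly(A)-selected and stranded, and bcl2fastq 2.17.1.14 and build mm10 come from the submitters' processing notes. The aligner, counter and strand setting were not given in the sources used here, so reads of overlapping genes may be mixed: 14 members have exons overlapping an opposite-strand gene and 1 (Bsn) a same-strand microRNA. The authors deposited whole-number read counts per gene for each library, not normalized. Symbols and exon lengths came from GENCODE on GRCm38 (31292 of the identifiers matched, 125 did not).

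Counts were tested with edgeR 4.0.16 in R 4.3.3: filterByExpr with a minimum count of 10, TMM scaling, robust quasi-likelihood fit over both groups, Benjamini-Hochberg adjustment over 16511 genes. The common biological coefficient of variation was 11.1%, and a count of 0 would allow up to 3 counts, 0.0822 to 0.123 CPM. CPM use TMM-scaled library sizes. Libraries of 1 genotype differed by far more than counting noise in all 12 pairs. The fit and the relations were tested on simulated data. DESeq2 1.42.0, limma 3.58.1 (voom), other scalings and filters, a replicate block and left-out libraries were alternatives. For relations, log2(CPM + 0.1) was used and all 40320 orders of the libraries were enumerated. Ratios and relations were added after the data had been examined. The left-out fit printed beside a single gene or ratio was often the one without its most extreme library. A changed difference there follows from that choice and is not a separate test.

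The members and lists were chosen with earlier results of these data known. Every member is described by role; values in every library are given for the 12 members with the smallest p and the highest member per length of each role, for the other lists the 4 genes with the smallest p, of which 1 is not reported here. Over the other marker lists, 0 genes passed the adjusted threshold; median log2 fold changes were 0.027 for medium spiny neurons (10 genes), -0.17 for cortical neurons (10), 0.54 for thalamic neurons (10), 0.15 for striatal interneurons (9), 0.058 for pallidal neurons (5), 0.16 for astrocytes (10), 0.17 for oligodendrocytes (10), 0.077 for microglia (10), 0.22 for endothelial cells (10), -2.34 for choroid plexus (7) and 0.48 for blood cells (5).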

Additional observations from a re-analysis of the deposited data

Results flagged for a closer look

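Among the 34 members and Dclk3, each genotype's 4 libraries were examined for a single library far from the other 3, which makes 70 groups, and 3 were flagged; chance alone flags about 1 in 20 such groups. Vamp1 was at 181 CPM in wild type library 4, against 149 to 153 CPM in the other wild type libraries (the gap was 0.872 of the group's range). Rims3 was at 330 CPM in wild type library 4, against 201 to 213 CPM in the others (0.879 of the range). Syt6 was at 74.1 CPM in wild type library 3, against 87.6 to 89.6 CPM (0.882 of the range).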

How the results depend on the processing

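No member passed an adjusted p of 0.05 under any of the 17 alternatives. The number of members at an unadjusted p under 0.05 was 1 as reported, 2 with no filter on low counts, 2 with DESeq2's Wald test, 2 with limma-voom (with 3.75%, 2.21% and 4.26% of all tested genes at that level) and between 1 and 6 when 1 library was left out (6 without wild type library 4, where 6.67% of all genes reached that level). Besides Vamp1, these members were Sv2b without wild type library 1 (4.79% of all tested genes) and Sv2c, Bsn and Pclo without wild type library 3 (4.25%). They were Sv2b and Bsn without knockout library 2 (4.76%), and Syn2, Syt2, Rims2, Rims3 and Cplx1 without wild type library 4. Vamp1 was the only member when wild type library 2 or knockout library 1, 3 or 4 was left out alone. At most 3.62% of all tested genes reached that level in those settings. The number was 9 of 34 without both libraries numbered 4, where 8.22% of all tested genes reached that level. These 9 were Syn2, Snap25, Vamp1, Syt2, Syngr3, Rims1, Rims2, Rims3 and Cplx1. Without knockout libraries 1 and 4 the number was 1 (Unc13a), where 1.81% of all tested genes reached that level. Members below 0 numbered between 16 and 25, and the median lay between -0.052 and 0.003. The Vamp1 log2 fold change lay between 0.11 and 0.35, with adjusted p from 0.345 to 1.0. Of the 22 members outside the 12 with the smallest p, 3 moved by more than 1 SD, all without knockout libraries 1 and 4: Vamp2 (0.02), Unc13a (0.24) and Unc13c (-0.23). Without any filter the Dclk3 log2 fold change was -2.07 with an edgeR adjusted p of 0.0647, with far more low genes in the fit, so the 1 gene that passed there was not Dclk3. The number of all genes past the adjusted threshold was 1, but 3 with DESeq2's Wald test, 1 to 2 with 1 library left out and 3 without both libraries numbered 4; the cause was not tested.

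No pairing by replicate number was assumed in the main fit. Same-numbered libraries correlated at 0.037, 0.021, 0.053 and -0.276 after removal of the group means, and the other pairs at -0.162 to 0.24. So few pairs cannot exclude that same-numbered libraries were handled together. With the replicate block, 4 members had an unadjusted p under 0.05 (Syn1, Syn2, Vamp1 and Sv2b; 4.26% of all tested genes), and 0 passed the adjusted threshold. Differences within a member's 95% interval cannot be told from one another at 4 libraries a group.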
